A study of Mus musculus with 6 samples.

Results

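The 39 genes described here encode the machinery of S phase: the proteins that license replication origins, unwind DNA, copy it, supply its nucleotides and pack the new strands, with the E2F factors and E cyclins that switch them on. They were picked by gene name for these functions, with earlier results of these data known. Each is read from the probe sets (groups of array probes that report 1 transcript) annotated to that gene alone. All 39 were measured, out of 19937 genes in the series. Pcna, Slbp and Tk1 are the 3 members with more than 1 probe set, and the brightest on average represents each.

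The cells were plasmacytoid dendritic cells (pDCs), an immune cell type known for its interferon output, taken from mouse spleen as B220+ SiglecH+ cells and profiled on Affymetrix arrays. There were 3 arrays of cells labelled IRF8 wild-type (WT) and 3 of cells labelled IRF8 knockout (KO). IRF8 is a transcription factor of dendritic cell and monocyte development. Strain, age, the altered allele and the number of animals behind an array are not stated, so each p-value measures the spread between arrays, which may be technical. The title of the series names IRF8 control of late pDC differentiation and of MYC repression as its subject.

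Levels are log2 values, so a difference of 1 is a doubling. Array medians over all probe sets lay between 5.53 and 5.56, and a shift of every transcript in the same direction could not be seen. The Irf8 transcript itself was not lower in the arrays labelled KO, with means of 10.14 (WT) and 10.48 (KO), a difference of 0.34 (limma adjusted p = 0.425), or 0.50 without KO replicate 1 (adjusted p = 0.110). Its probe set may lie outside the altered part, so the labels are not checked by it. Markers of the labelled cell type were high in both groups. Among them Siglech is no check of the cell type, since the cells were taken as SiglecH+. The summed linear level of 10 pDC markers, Siglech and Tcf4 among them, was 33516 to 37425 in WT and 32013 to 33010 in KO. Every KO sum thus lay below every WT sum, an order that the median log2 level of the markers did not share. That median was 11.41, 11.45 and 11.60 in WT and 11.37, 11.65 and 11.55 in KO. Of the 10 markers, means were 9.08 or more in both groups, 6 had negative differences, and Ccr9 was lower with all arrays (-0.97, limma adjusted p = 0.0221). KO replicate 1 stood apart in the transcripts described here, and differences of the members are therefore given for all 6 arrays and without that array.

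A cell copies its DNA once per division. Before S phase the origin recognition complex, CDC6 and CDT1 load the ring-shaped MCM2-7 helicase onto origins. CDC45 and the GINS complex then activate it, and polymerases follow. Most of the genes involved are transcribed under E2F factors, which are released when cyclin and CDK complexes inactivate the retinoblastoma proteins. Resting cells keep these transcripts low, and mature pDCs are known as largely non-dividing cells. In a bulk sample, more cells in S phase and more transcript in each cell cannot be told apart.

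Most S phase genes lay above WT in the KO arrays, but by amounts that differed widely between the 3 KO arrays. Measured from the WT mean, the median of the 39 members lay 0.76 higher in the first KO array, 0.17 in the second and 0.26 in the third, while the WT arrays lay at 0.013, 0.0082 and 0.038. The same median over all genes was 0.0040, -0.053 and -0.055 in the KO arrays. In KO replicate 1, 37 of the 39 members lay above their WT mean, against 30 and 29 in the other KO arrays. KO replicate 1 held the highest of the 6 values for 30 of 39 members (76.9%), where it did so for 19.6% of all genes. It exceeded both other KO arrays for 32 members, against 46.6% of all genes.

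**Figure D1:**
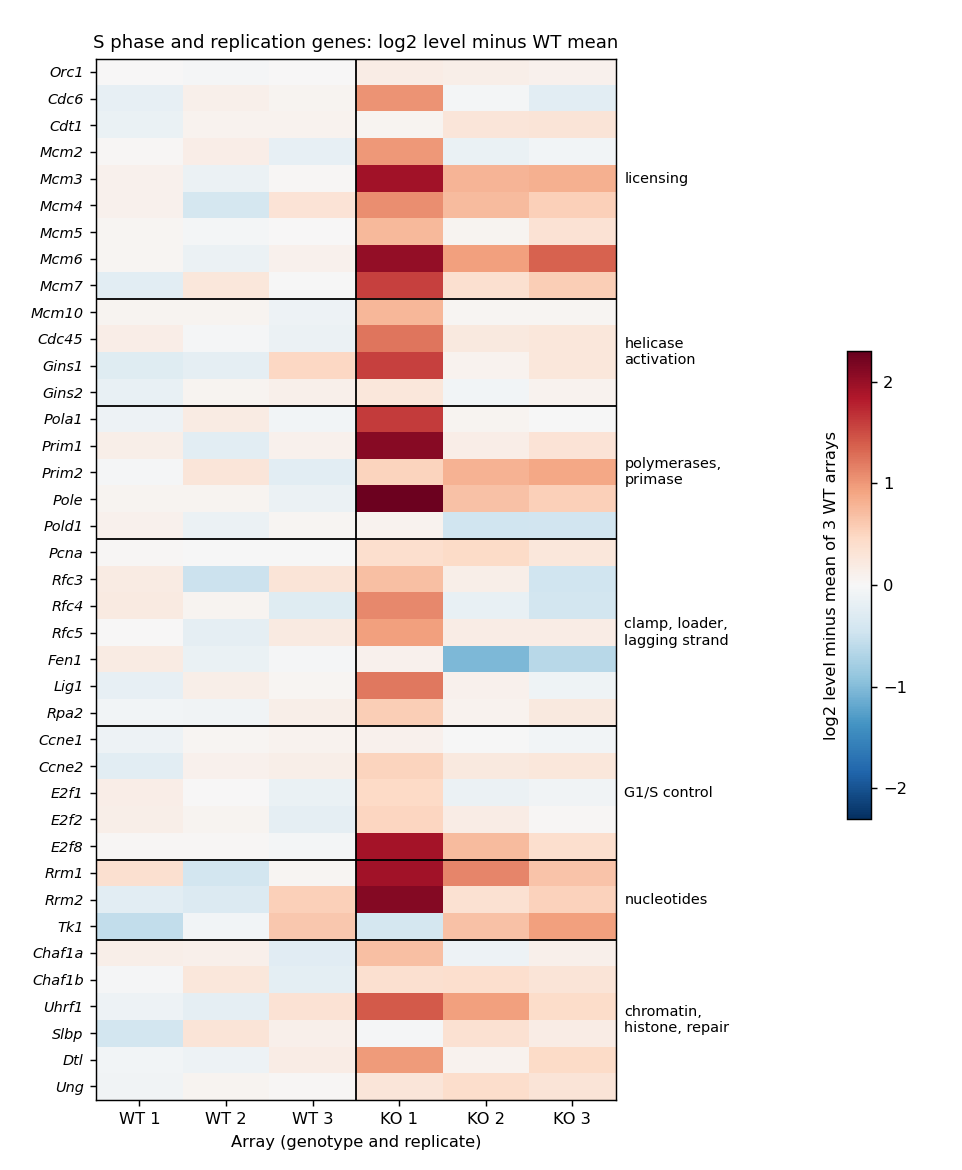
Log2 level of each of the 39 members (rows, grouped by role) in each of the 6 arrays (columns), shown as the difference from the mean of the 3 WT arrays; red is higher and blue lower. The KO replicate 1 column is the reddest, with a median of 0.76 against 0.17 and 0.26 in KO replicates 2 and 3, and Fen1 and Pold1 are blue in KO replicates 2 and 3.

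The members varied more among KO arrays than among WT arrays. The median KO standard deviation of the members was 0.452, against 0.173 in WT, while over all genes the medians were 0.151 and 0.161. For 31 of 39 members (79.5%) the KO arrays varied more than the WT arrays, which held for 47.8% of all genes. With all 6 arrays, 37 of 39 members had a positive KO minus WT difference (median 0.36), where 41.8% of all genes did (median -0.037). At a limma adjusted p of 0.05, however, 1 member was higher and 0 were lower. That share, 2.56%, is near the 2.3% of all genes called higher and is no result about the members, while 2.08% of all genes were called lower and 4.38% in either direction. An unadjusted limma p under 0.05 was reached by 12 members (30.8%), against 16.1% of all genes. All 3 KO values exceeded all 3 WT values for 17 members (43.6%), against 8.71% of all genes, and 0 members lay wholly below WT, against 11.7%. The exact two-sided permutation test gave those 17 a p of 0.10 each, the lower limit of a 3 against 3 design.

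Without KO replicate 1, the members' typical difference was smaller, and so were their standard errors. That array was set apart for its values in these genes, so a smaller spread of the members follows largely from leaving it out. The p-values of this fit hold only given that choice. The members' median difference was 0.24, and 30 of 39 were positive (76.9%), against 39.4% of all genes. The median standard error of the members went from 0.229 to 0.149, whereas over all genes it went from 0.140 to 0.147. Now 4 members were higher by limma, Mcm3, Mcm6, Prim2 and Pole, which is 10.3% where 3.91% of all genes were. Fen1 was the 1 member lower, which is 2.56% where 3.61% of all genes were, and 7.52% of all genes were called in either direction. An unadjusted limma p under 0.05 was reached by 14 members (35.9%), against 20.2% of all genes. KO replicates 2 and 3 both exceeded every WT value for 19 members (48.7%), against 14.6% of all genes.

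**Figure D2:**
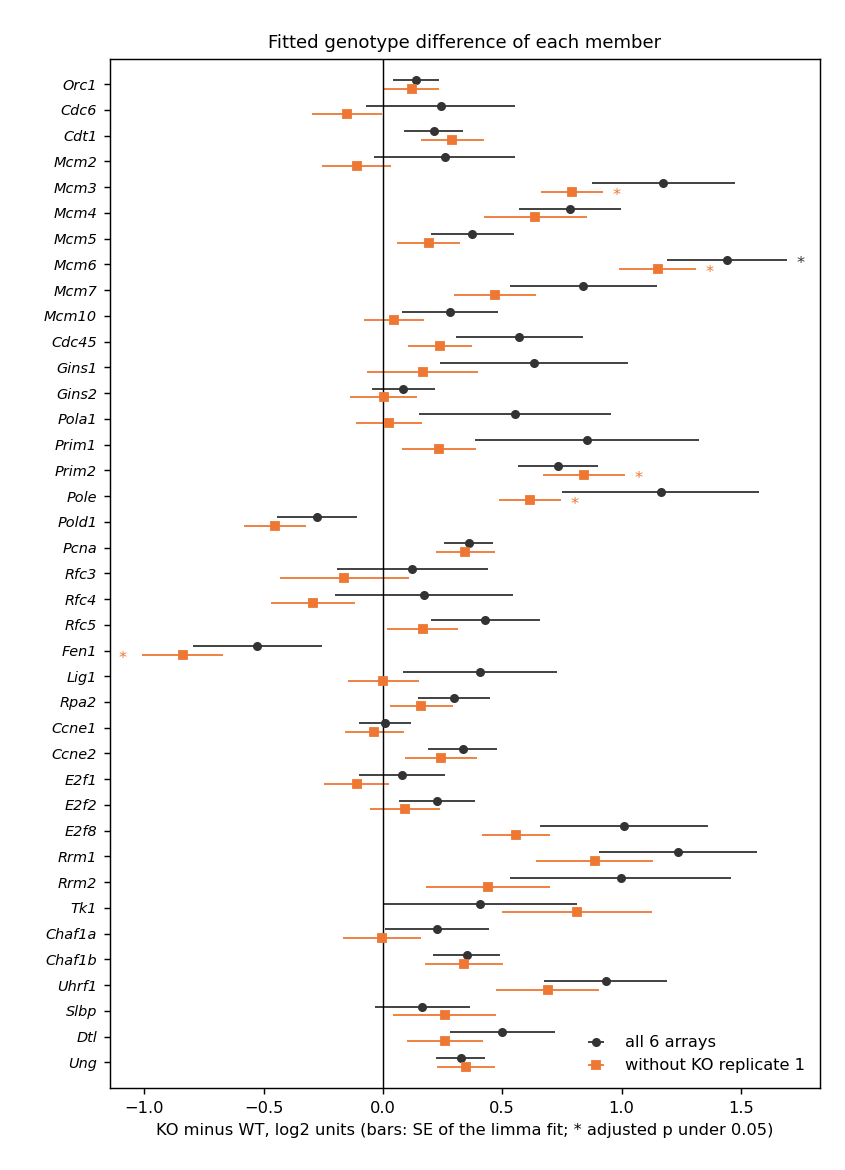
Fitted KO minus WT difference in log2 units (x axis) for each of the 39 members (y axis), with all 6 arrays (black circles) and without KO replicate 1 (orange squares); bars are standard errors of the limma fit and asterisks mark an adjusted p under 0.05. Mcm6 is the member marked in both fits, Mcm3, Prim2, Pole and Fen1 are marked without KO replicate 1, and Fen1 is to the left of 0.

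Beyond their roles, the members share letters in their promoters. RefSeq windows of 300 bases, from 250 before to 50 after each listed start in assembly GRCm38.p6, were matched by symbol for 33 members, in 39 windows. The 6 members without an entry were Mcm4, Gins1, Gins2, Prim2, Pole and Ccne2. The E2F letters searched, on either strand, were TTGGCGC as the common form, with TTCGCGC as one variant and the letters TTCCCGC as another, and matches on opposite strands can overlap. They occurred in 25 of 39 member windows (64.1%) in 25.8% of the 31 windows of genes for G2 and mitosis, and in 8.07% of all 32851 windows of that length. The CCAAT box, spelled by its name, occurred in 61.5% of member windows, 37.4% of all windows and 80.6% of the G2 and mitosis windows. The E-box CACGTG, to which MYC and its partner MAX bind, occurred in 7.69% of member windows, 7.15% of all windows and 6.45% of the G2 and mitosis windows. TTTGAA, the core of the element known from promoters of mitotic genes, occurred in 12.8% of member windows and 17.9% of all windows, but in 80.6% of the G2 and mitosis windows. A match is a description of letters, not of a bound site.

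The windows below are those of the members past the threshold that have an entry, Mcm6, Mcm3 and Fen1, and of the members in which KO replicate 1 stood farthest above the other KO arrays, Prim1 and Rrm2. Capitals mark E2F letters. Mcm6 (chr1:128359656-128359955, minus strand) holds 5 matches in 3 clusters, Mcm3 (chr1:20820263-20820562, minus strand) holds 3, and the shown Fen1 window (chr19:10203872-10204171, minus strand) holds 1, as does Prim1 (chr10:128014965-128015264, plus strand). Rrm2 (chr12:24708004-24708303, plus strand) and the other Fen1 window (chr19:10204344-10204643, minus strand) hold 0.
Mcm6: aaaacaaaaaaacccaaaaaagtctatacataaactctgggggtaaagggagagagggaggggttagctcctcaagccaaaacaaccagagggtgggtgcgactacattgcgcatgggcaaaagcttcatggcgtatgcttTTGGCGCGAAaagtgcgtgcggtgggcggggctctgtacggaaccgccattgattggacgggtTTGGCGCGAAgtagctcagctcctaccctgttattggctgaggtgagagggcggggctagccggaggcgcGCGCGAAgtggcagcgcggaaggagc
Mcm3: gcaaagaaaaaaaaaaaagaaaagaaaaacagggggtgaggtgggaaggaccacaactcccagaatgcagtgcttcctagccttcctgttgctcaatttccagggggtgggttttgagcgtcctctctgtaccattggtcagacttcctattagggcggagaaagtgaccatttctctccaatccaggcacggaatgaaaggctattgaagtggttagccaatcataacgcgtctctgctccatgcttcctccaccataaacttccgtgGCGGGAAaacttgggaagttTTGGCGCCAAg
Fen1: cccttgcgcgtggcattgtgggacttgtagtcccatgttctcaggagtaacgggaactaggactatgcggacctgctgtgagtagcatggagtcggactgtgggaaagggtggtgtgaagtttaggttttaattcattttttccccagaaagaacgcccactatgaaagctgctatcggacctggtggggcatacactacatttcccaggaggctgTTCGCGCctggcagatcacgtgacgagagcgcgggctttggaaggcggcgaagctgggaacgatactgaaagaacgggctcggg
Prim1: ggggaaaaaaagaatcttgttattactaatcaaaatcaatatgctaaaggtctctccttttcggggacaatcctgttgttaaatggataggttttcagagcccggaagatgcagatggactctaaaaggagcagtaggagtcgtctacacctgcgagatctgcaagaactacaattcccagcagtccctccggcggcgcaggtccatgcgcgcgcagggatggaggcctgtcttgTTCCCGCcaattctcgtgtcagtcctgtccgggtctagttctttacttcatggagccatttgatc
Rrm2: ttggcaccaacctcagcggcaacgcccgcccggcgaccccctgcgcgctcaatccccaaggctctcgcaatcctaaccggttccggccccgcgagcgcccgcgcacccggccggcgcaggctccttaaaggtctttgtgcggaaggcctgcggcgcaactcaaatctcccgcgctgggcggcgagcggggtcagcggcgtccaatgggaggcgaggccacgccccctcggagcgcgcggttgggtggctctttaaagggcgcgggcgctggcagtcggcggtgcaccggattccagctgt

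The 22 members with E2F letters in a window had a median KO minus WT difference of 0.36 with all arrays, and the 11 members whose windows lack them 0.33. In KO replicate 1 alone the medians above the WT mean were 1.00 and 0.46, and in the fit without it 0.18 and 0.24. The order of these groups therefore turned with the array. Of the members past the threshold in either fit, Mcm6, Mcm3 and Fen1 had a window, with 5, 3 and 1 matches. They were 3 of the 22 members with E2F letters, against 0 of the 11 without, and went both ways. Mcm6 and Mcm3 were higher and Fen1 was lower. Over all genes, 4.38% were called in either direction with all arrays and 7.52% without KO replicate 1, with no split by letters. These counts are therefore no result about the letters. Prim2 and Pole had no window. Whether the groups differ was not tested.

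The MCM2-7 helicase includes the member that was higher in both fits, Mcm6. All 6 had a positive difference, from 0.26 for Mcm2 to 1.44 for Mcm6. In 5 of the 6, all but Mcm2, every KO value lay above every WT value, against 8.71% of all genes. Mcm6 measured 7.17, 6.99 and 7.22 in WT replicates 1 to 3 and 9.15, 8.08 and 8.48 in KO replicates 1 to 3. The groups did not overlap, and KO replicate 1 was the highest array. The KO mean was 2.72-fold higher, at 8.57 ± 0.54 against 7.13 ± 0.12 (SD, n = 3 each), with a difference of 1.44 (SE 0.25, limma adjusted p = 0.0204). Without KO replicate 1 Mcm6 rose 2.22-fold, by 1.15 (SE 0.16, adjusted p = 0.00659). With all arrays the call was lost on leaving out any WT array or KO replicate 3 (highest adjusted p 0.0873), and in the smaller fit on leaving out KO replicate 3 (0.0770).

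Mcm3, another subunit of the ring, measured 5.55, 5.31 and 5.48 in WT and 7.39, 6.22 and 6.26 in KO. KO replicate 1 was 1.15 above the mean of the other KO arrays, yet these too were above all WT values. The difference with all arrays was 1.17 (SE 0.30, limma adjusted p = 0.0824). Without KO replicate 1, where the remaining KO arrays lay close together, Mcm3 rose 1.73-fold, by 0.79 (SE 0.13, adjusted p = 0.0124), a call that needed both of them (highest adjusted p 0.136 with either left out). The other ring subunits passed in neither fit. Mcm7 differed by 0.84 with all arrays and 0.47 without KO replicate 1, Mcm4 by 0.78 and 0.64, and Mcm5 by 0.37 and 0.19. Mcm2 differed by 0.26 and -0.11, and was higher in KO replicate 1 alone, at 7.51 against 6.32 to 6.68 in the other 5 arrays.

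The loaders of the helicase differed less. Orc1, the ATPase subunit of the origin recognition complex, was the dimmest member, with a mean of 4.29 that lies below the 25th percentile of all genes (4.58). It measured 4.23, 4.19 and 4.23 in WT and 4.39, 4.35 and 4.32 in KO. The KO values were all above the WT values by a small margin, a difference of 0.14 (limma adjusted p = 0.575), or 0.12 without KO replicate 1 (adjusted p = 0.648). Cdt1, which brings the MCM ring to origins, differed by 0.21 with all arrays and 0.29 without KO replicate 1, and here KO replicates 2 and 3 were above KO replicate 1. Cdc6, the loading ATPase, was above WT in KO replicate 1 only, with shifts from the WT mean of 1.03, -0.054 and -0.25 in KO replicates 1 to 3. Neither passed in either fit.

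Genes that activate the loaded helicase were high mainly in KO replicate 1. Of Mcm10, Cdc45, Gins1 and Gins2, 0 passed in either fit, with differences of 0.086 to 0.63 with all arrays and 0.0028 to 0.24 without KO replicate 1. Gins1, a GINS subunit, lay 1.57 above the WT mean in KO replicate 1 and 0.080 and 0.25 above it in KO replicates 2 and 3. Cdc45, which joins MCM and GINS in the active helicase, had shifts of 1.23, 0.22 and 0.26. It was the 1 gene of these 4 with all KO values above all WT values, against 8.71% of all genes. Gins2 hardly differed in any array, with KO values of 7.44, 7.12 and 7.27 against 7.02 to 7.30 in WT.

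Of the 5 polymerase and primase genes, 0 passed with all arrays, and Pole and Prim2 passed without KO replicate 1. Pole, the catalytic subunit of the leading strand polymerase, measured 4.25, 4.25 and 4.05 in WT and 6.44, 4.86 and 4.74 in KO. The groups did not overlap, and KO replicate 1 was 2.26 above the WT mean, the largest such shift of any member. Over all arrays the difference was 1.16 (SE 0.41, limma adjusted p = 0.209), and without KO replicate 1 Pole rose 1.53-fold, by 0.62 (SE 0.13, adjusted p = 0.0318). Leaving out any of WT replicates 2 and 3 and the remaining KO arrays ended that call (adjusted p up to 0.249).

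The 2 primase subunits, which work as a pair to lay the RNA primers, differed in opposite ways between arrays. Prim1, the catalytic subunit, measured 6.15, 5.77 and 6.11 in WT and 8.10, 6.17 and 6.32 in KO. KO replicate 1 stood 1.85 above the mean of the other KO arrays, the largest gap among the members, and those arrays were just above WT. Its difference was 0.85 (SE 0.47, limma adjusted p = 0.455), and 0.24 without KO replicate 1 (adjusted p = 0.478). Prim2, the regulatory subunit, measured 5.53, 5.82 and 5.30 in WT and 6.07, 6.35 and 6.44 in KO. Here KO replicate 1 was the lowest KO array, and the groups again did not overlap. Prim2 differed by 0.73 with all arrays (SE 0.17, limma adjusted p = 0.0554) and rose 1.79-fold, by 0.84, without KO replicate 1 (SE 0.17, adjusted p = 0.0278). Leaving out WT replicate 1 or either remaining KO array ended that call (adjusted p up to 0.226).

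Pold1, the catalytic subunit of polymerase delta, which copies the lagging strand, was 1 of 2 members with a negative difference. It measured 7.69, 7.45 and 7.63 in WT and 7.67, 7.12 and 7.14 in KO. KO replicate 1 lay within the WT range and the other KO arrays below it. The difference was -0.28 (limma adjusted p = 0.511), and -0.45 without KO replicate 1 (adjusted p = 0.0886). Pola1, the polymerase that extends the primers, was high in KO replicate 1 alone, with shifts of 1.61, 0.062 and -0.012 in KO replicates 1 to 3.

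Fen1, the flap endonuclease that trims the joints between lagging strand fragments, was the 1 member lower without KO replicate 1. It measured 6.86, 6.51 and 6.65 in WT and 6.78, 5.64 and 6.04 in KO. KO replicate 1 lay within the WT range and the others below all WT values. The difference with all arrays was -0.53 (SE 0.27, limma adjusted p = 0.417), and without KO replicate 1 Fen1 fell by 0.84 on the log2 scale (SE 0.17, adjusted p = 0.0279). It ended on leaving out WT replicate 1, WT replicate 3 or either remaining KO array (adjusted p up to 0.228). Lig1, the ligase that seals the same joints, was high in KO replicate 1 alone, with shifts of 1.22, 0.10 and -0.097.

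Pcna, the sliding clamp that tethers polymerases, was the brightest member and behaved alike in all KO arrays. It measured 10.84, 10.81 and 10.80 in WT and 11.20, 11.25 and 11.08 in KO. The KO values lay above all WT values, and KO replicate 1 was in their middle. The difference was 0.36 (SE 0.10, limma adjusted p = 0.117), and 0.35 without KO replicate 1 (adjusted p = 0.160). The second Pcna probe set gave a larger difference, from 10.14, 9.86 and 10.19 in WT to 10.74, 11.27 and 11.15 in KO. When every probe set was tested separately, a fit added after the data were seen, this one was higher by 0.99 (adjusted p = 0.0212) and, without KO replicate 1, by 1.15 (adjusted p = 0.00601), and the mean of both Pcna probe sets passed as well (0.67, adjusted p = 0.0207). The size of the Pcna difference and its call thus depended on the probe set. Of the clamp loader subunits, Rfc3, Rfc4 and Rfc5, 0 passed, with differences of 0.12, 0.17 and 0.43, or -0.16, -0.29 and 0.17 without KO replicate 1. Rpa2, part of the complex that coats single-stranded DNA, differed by 0.30 and 0.16 and did not pass.

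**Figure D3:**
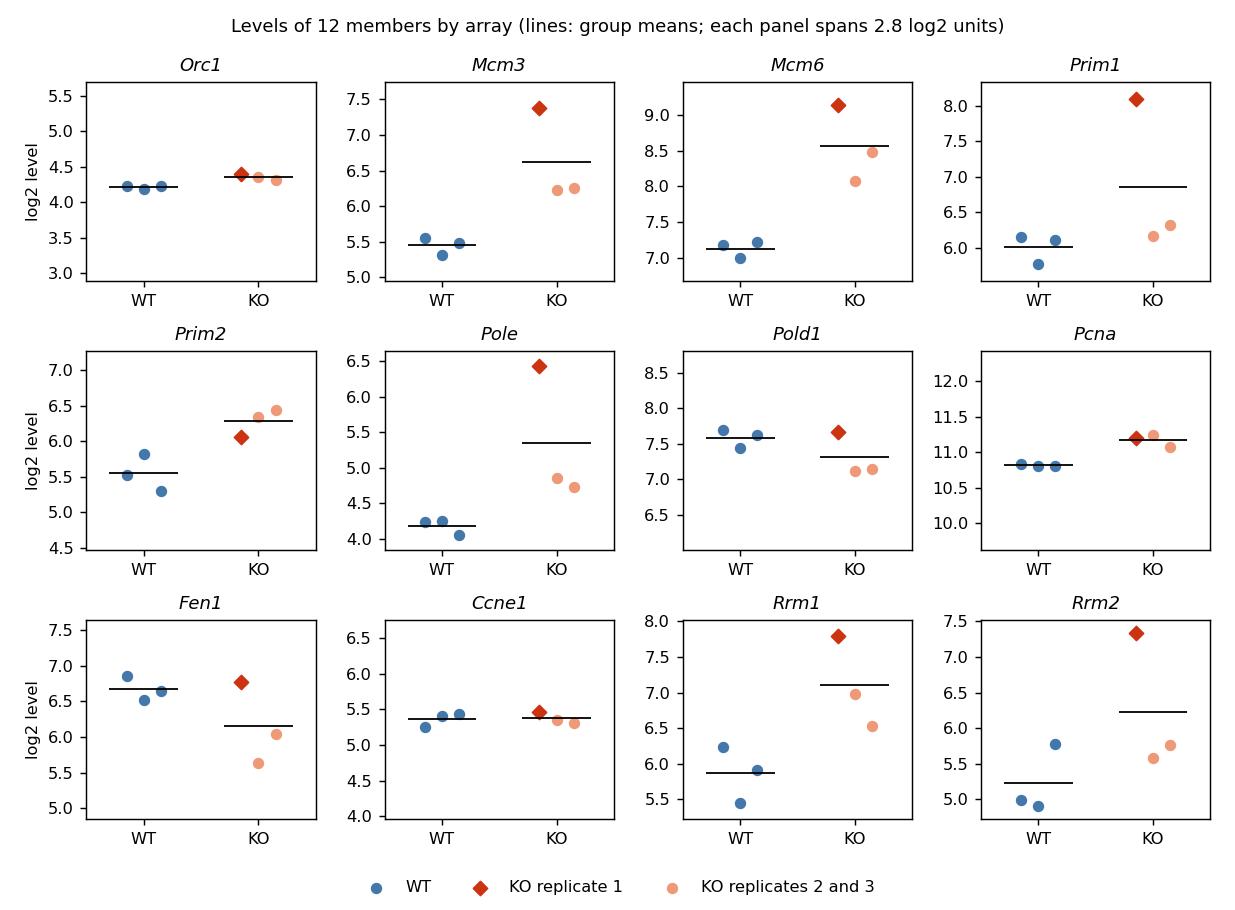
Log2 level (y axis) of 12 members in the 3 WT arrays (blue), KO replicate 1 (red diamonds) and KO replicates 2 and 3 (orange); horizontal lines are group means. Mcm6, Mcm3, Pole and Rrm1 show all KO arrays above WT with KO replicate 1 on top, Prim1 and Rrm2 show KO replicate 1 far above the rest, and Fen1 and Pold1 show KO replicates 2 and 3 below WT.

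Of the G1/S regulators among the members, 0 passed in either fit. Ccne1, which encodes cyclin E1, the partner of CDK2 at the start of S phase, had the difference nearest to 0. It measured 5.25, 5.40 and 5.44 in WT and 5.46, 5.35 and 5.31 in KO, and the groups overlapped, with a difference of 0.0087 (SE 0.11, limma adjusted p = 0.985), or -0.036 without KO replicate 1. Its sign turned under several settings. Ccne2, for cyclin E2, had KO values of 5.92, 5.64 and 5.66 above the WT values of 5.17, 5.50 and 5.55, a difference of 0.33 (adjusted p = 0.316), or 0.24 without KO replicate 1. The activator E2F genes differed little, E2f1 by 0.080 and E2f2 by 0.23, or -0.11 and 0.093 without KO replicate 1. E2f8, an E2F family repressor that is itself an E2F target, differed more. It measured 4.92, 4.92 and 4.84 in WT and 6.81, 5.62 and 5.28 in KO, without overlap, a difference of 1.01 (SE 0.35, adjusted p = 0.200) that was 0.56 without KO replicate 1 (adjusted p = 0.0610).

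In the smaller fit, E2f8 passed with quantile normalization, with centred medians and with a variance trend (lowest adjusted p 0.0384).

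Genes of nucleotide supply differed by 0.41 to 1.24, and 0 of the 3 passed in either fit. Rrm1, the large subunit of ribonucleotide reductase, which makes deoxyribonucleotides, measured 6.24, 5.45 and 5.91 in WT and 7.80, 6.98 and 6.53 in KO. The groups did not overlap, but both spread widely, and the difference was 1.24 (SE 0.33, limma adjusted p = 0.0990), or 0.89 without KO replicate 1 (SE 0.25, adjusted p = 0.0805). With both arrays numbered 1 left out it passed (1.07, adjusted p = 0.0339). Rrm2, the small subunit made in S phase, measured 4.99, 4.91 and 5.78 in WT and 7.34, 5.58 and 5.76 in KO. Apart from KO replicate 1 the KO values lay inside the WT range, and the difference was 1.00 (SE 0.46, adjusted p = 0.357), or 0.44 without KO replicate 1 (adjusted p = 0.415). Without KO replicate 1 and WT replicate 3 it passed (0.72, adjusted p = 0.0358).

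Tk1, the thymidine kinase of dividing cells, ran against this order on its brighter probe set. That probe set measured 8.11, 8.63 and 9.31 in WT and 8.29, 9.37 and 9.63 in KO, so that both arrays numbered 1 were the lowest of their group. The other Tk1 probe set measured 7.61, 7.47 and 8.54 in WT and 7.97, 7.53 and 7.50 in KO, with differences of 0.41 and -0.21 for the pair (limma adjusted p = 0.723 and 0.812, every probe set tested separately). No direction is therefore given for Tk1.

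Genes of new chromatin and repair differed by 0.17 to 0.93, and 0 of 6 passed in either fit. Uhrf1, which recruits the maintenance DNA methyltransferase to hemimethylated DNA, measured 5.43, 5.36 and 5.88 in WT and 6.98, 6.51 and 5.99 in KO. The groups did not overlap, with a difference of 0.93 (SE 0.26, limma adjusted p = 0.108), or 0.69 without KO replicate 1 (adjusted p = 0.116). Ung, the uracil DNA glycosylase, and Chaf1b, a subunit of the histone chaperone CAF-1, showed small differences of 0.33 and 0.35, or 0.35 and 0.34 without KO replicate 1. The KO arrays of Ung lay at 6.10, 6.22 and 6.12, above WT values of 5.73 to 5.89, and those of Chaf1b at 5.34, 5.34 and 5.27, above 4.74 to 5.22. Chaf1a, the large CAF-1 subunit, differed by 0.23, Dtl, which directs CDT1 to degradation, by 0.50, and Slbp, which binds histone messenger RNA, by 0.17. These differences were -0.0036, 0.26 and 0.26 without KO replicate 1, and all 3 had overlapping groups.

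Other genes of DNA replication were listed by function. Of 75 measured, 1 was higher and 0 lower by limma with all arrays, where 2.3% and 2.08% of all genes were. With KO replicate 1 left out, 1 was higher and 3 lower, where 3.91% and 3.61% of all genes were, so neither count is a result about the list. The median difference was 0.21 with all arrays and 0.033 without KO replicate 1. By function, the medians with all arrays ran from 0.0015 for polymerases and accessory factors to 0.38 for recombination in S phase and 0.46 for fork protection and cohesion. Pclaf, whose protein binds PCNA, was the 1 that rose in both fits, by 1.37 (adjusted p = 0.0398) and 1.03 (adjusted p = 0.0113). It measured 5.05, 5.25 and 4.996 in WT and 7.14, 6.34 and 5.92 in KO. The 3 that fell without KO replicate 1, named after their values were seen, were Rfc1, the large clamp loader subunit, by 0.69 (adjusted p = 0.0198), Rrm2b, a ribonucleotide reductase subunit used outside S phase, by 0.68 (adjusted p = 0.0325), and Pole4, an accessory subunit of polymerase epsilon, by 0.54 (adjusted p = 0.0442). All other groups of that list had 0 genes past the threshold with all arrays.

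Among 30 measured regulators upstream of the members, 3 were higher and 0 lower by limma with all arrays, where 2.3% and 2.08% of all genes were. In the fit without KO replicate 1, 6 were higher and 0 lower, where 3.91% and 3.61% of all genes were. Cdk6, a kinase that inactivates the retinoblastoma protein, measured 7.64, 7.21 and 7.44 in WT and 8.58, 8.29 and 8.46 in KO, a rise of 1.01 (SE 0.14, adjusted p = 0.00852), or 0.95 without KO replicate 1 (adjusted p = 0.0135). Tfdp1, the dimer partner of E2F factors, measured 8.58, 8.56 and 8.78 in WT and 9.10, 9.29 and 9.35 in KO, a rise of 0.61 (SE 0.12, adjusted p = 0.0342), or 0.68 without KO replicate 1 (adjusted p = 0.0217). Myc, the third gene, rose by 2.88 (adjusted p = 0.00289), or 2.48 without KO replicate 1 (adjusted p = 0.000246), and its KO values of 9.69, 8.37 and 8.61 were highest in KO replicate 1. The others that passed without KO replicate 1, named after their values were seen, were the D cyclins Ccnd1 and Ccnd2 (0.81 and 0.75, adjusted p = 0.0447 and 0.0456) and Lin54, of the DREAM complex (1.11). Of 6 CDK inhibitor genes, 0 passed in either fit, with a median difference of -0.0096.

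Genes of G2 and mitosis shared the pattern of KO replicate 1 with a larger size. The median shift of 32 such genes was 2.26, 0.37 and 0.25 in KO replicates 1 to 3, against 0.76, 0.17 and 0.26 for the S phase members. KO replicate 1 exceeded the mean of the other KO arrays by at least 1 log2 unit for 27 of those 32 and for 13 of 39 members (33.3%), where 1.79% of all genes did. With all arrays 1 of the 32 was higher by limma, Cenpa, the centromeric histone H3 variant (1.68, adjusted p = 0.00578, and 1.86 without KO replicate 1, adjusted p = 0.00232), and 0 were lower, where 2.3% and 2.08% of all genes were. In the smaller fit, where 3.91% and 3.61% of all genes were, 6 were higher and 1, Foxm1, a transcription factor of mitotic genes, was lower, with a median of 0.28. Whether the lists differ was not tested.

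**Figure D4:**
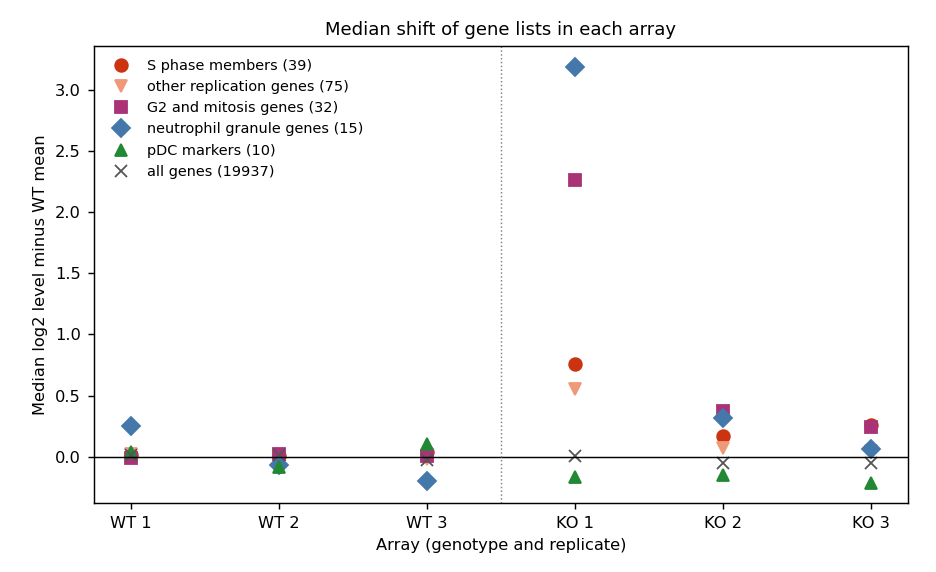
Median log2 level minus the WT mean (y axis) in each of the 6 arrays (x axis) for the 39 members, 75 other replication genes, 32 G2 and mitosis genes, 15 neutrophil granule genes, 10 pDC markers and all 19937 genes. In KO replicate 1 neutrophil granule genes lie at 3.19, G2 and mitosis genes at 2.26 and the members at 0.76, while all genes stay near 0.

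Markers of another cell type were also highest in KO replicate 1. All 15 neutrophil granule genes were above their WT mean there, with a median shift of 3.19, against 0.31 and 0.063 in KO replicates 2 and 3. Their summed linear level was 21032 in KO replicate 1, 1897 and 760 in the other KO arrays and 414 to 1680 in WT, where WT replicate 1 was the highest. Mpo and Elane, made by dividing neutrophil precursors, stood at 7.21 and 7.13 in KO replicate 1 and at 4.67 to 5.66 in the other 5 arrays. Lcn2 and S100a8, of later neutrophils, stood at 11.40 and 12.70 in that array, and S100a8 was also high in WT replicate 1, at 9.34. The scale has no level of 0, and no detection calls were used. The part of these cells in the high S phase values of KO replicate 1 was not tested. The 10 stem and progenitor genes had even median shifts of 0.63, 0.63 and 0.56 in KO replicates 1 to 3. Of these, 8 had positive and 2 negative differences, from -0.68 for Meis1 to 1.95 for Sox4. The 2 with negative differences lay wholly below WT, against 11.7% of all genes. For 7 erythroid genes the median shifts were 0.23, -0.021 and 0.025. Plasma cell genes had median shifts of 0.28, 1.09 and 0.94, larger in KO replicates 2 and 3, and B cell genes 0.57, 0.40 and 0.55. Of 7 plasma cell genes 4 had positive and 3 negative differences, down to -0.97 for Mzb1. Of 9 B cell genes 6 had positive and 3 negative differences. The shifts were 0.51, -0.027 and -0.085 for NK cell genes and 0.029, -0.30 and -0.095 for T cell genes. Those of monocyte and macrophage genes were -0.19, -0.54 and -0.80.

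Among the marker lists, other genes past the threshold with all arrays were, higher in KO, Prdm1, Sdc1, Blk, Cd79a, Fcer2a, Cd22, Cd8a, Flt3, Erg, Myb and Sox4, and lower, Cd4, Cd8b1, C1qb and Ccr9. By list, 2 of 7 plasma cell, 4 of 9 B cell, 1 of 9 T cell and 4 of 10 stem and progenitor genes were higher. Lower were 2 of 9 T cell, 1 of 9 monocyte and macrophage and 1 of 10 pDC genes. Over all genes 2.3% were called higher and 2.08% lower. Of 15 neutrophil, 7 erythroid and 8 NK cell markers, 0 passed with all arrays. Without KO replicate 1, 1 neutrophil gene was higher, where 3.91% of all genes were. Neither count is a result about those lists.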

How the data were processed

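Gene expression was measured on Affymetrix arrays after amplification with NuGen PICO SL and biotin labelling, per the labels' protocols. The authors' deposited table holds log2 levels, 1 per probe set and array, for 34760 probe sets. Their range shows the scale. Software, background correction and normalization: not given in the sources used here. Of the probe sets, 21640 had 1 gene symbol in the platform's annotation, 1321 had several and 11799 were unlisted. All 42 probe sets of the 39 members share a RefSeq transcript with their gene.

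Genotypes were compared with limma 3.58.1 in R 4.3.3 (lmFit, eBayes, no covariates, no filter) on 19937 genes, with two-sided p-values adjusted by Benjamini-Hochberg over all genes and a threshold of 0.05. Groups came from the sample titles. The exact permutation test used all 20 relabellings. The fit was tested on simulated data with the same spread in both groups. Members varied more among KO arrays than among WT arrays, a case which that test does not cover. The number of arrays limits the precision.

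The members and gene lists were chosen with earlier results of these data known. Values in every array were given for members past the threshold in either fit, the 3 largest and 3 smallest differences, the 2 largest gaps of KO replicate 1 from KO replicates 2 and 3, and the brightest and dimmest member. In other lists, genes past the threshold were named. Alternatives were quantile normalization, centred medians, bright genes, the mean of probe sets, a variance trend, array weights, the replicate number as a block and arrays left out. Shared numbers were not treated as pairs, since the labels state no pairing. Deviations of same-numbered arrays correlated across genes at 0.379, 0.0968 and 0.252. These values do not settle whether the arrays were paired, so the replicate block is among the alternatives. Figures were drawn with matplotlib 3.10.9.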

Additional observations from a re-analysis of the deposited data

How the results depend on the processing

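With all arrays 1 member was called higher. Among bright genes 2 of the 26 members kept were called higher, where 475 of 9968 genes were. With the mean of probe sets 2 members were, where 470 of 19937 genes were, and with array weights 2 members were. There were 4 with both arrays numbered 1 left out. With the replicate number as a block there were also 4, where Mcm3, Prim2 and Rrm1 joined Mcm6. Leaving out single arrays gave 0 to 4 higher and 0 to 1 lower members. In the fit without KO replicate 1, leaving out a further array gave 0 to 5 higher and 0 to 1 lower members, and no other setting moved its counts of 4 and 1 by more than 1.5 times. The median difference of the members stayed positive under every setting, between 0.168 with both arrays numbered 1 left out and 0.418 without KO replicate 3. Without KO replicate 1 it ran from 0.165 to 0.267 on leaving out a further array and was 0.168 with the replicate block. Over all genes, array weights gave 716 higher and 647 lower, the replicate block 707 and 655, and both arrays numbered 1 left out 741 and 641, against 459 and 415, while leaving out single arrays gave 249 to 780 and 202 to 719. The sign of Ccne1 turned with array weights (-0.018), with both arrays numbered 1 left out (-0.092) and on leaving out single arrays (-0.047 to 0.046), and in the fit without KO replicate 1 with quantile normalization (0.041), centred medians (0.019) and without WT replicate 3 (0.00075). The cause of these changes was not tested. Each WT array's deviations correlated best with those of the KO array of its own number, a hint from the data and not from the design. Values of low members such as Orc1 may understate a difference, since no background level was analysed here.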
